A study of Mus musculus with 4 samples.

Results

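Sertoli cells are the somatic cells of the seminiferous tubule that nurse the germ cells, and they are also an endocrine cell type. The genes described here are 9 that encode hormones of these cells, a protein that binds activins, and hormone receptors. The hormone genes are anti-Müllerian hormone (*Amh*) and the inhibin and activin subunits (*Inha*, *Inhba* and *Inhbb*). The others are the activin-binding protein follistatin (*Fst*), the AMH receptor (*Amhr2*), the activin type II receptors (*Acvr2a* and *Acvr2b*) and the receptor for the pituitary hormone FSH (*Fshr*). All 9 were taken by gene name from the table of 55820 loci and passed the filter on low counts, as did 20561 loci in all.

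The study sequenced RNA from whole testes of C57BL/6J mice at postnatal day 10 (P10), as 2 control and 2 *Mps1* sKO libraries. In *Mps1* sKO animals, floxed *Mps1* (*Ttk*), a kinase of the spindle checkpoint, is deleted by a Cre recombinase that *Stra8* drives in germ cells from early spermatogonia onwards, so Sertoli cells do not carry the deletion by design. Which alleles the control mice carry, and how many mice gave a library, is not given in the sources used here. P-values measure only the spread between these libraries, which may be technical.

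AMH makes the Müllerian ducts of the male fetus regress, and young Sertoli cells go on secreting it until they mature. An inhibin is a dimer of the alpha subunit (*Inha*) with a beta subunit (*Inhba* or *Inhbb*), and an activin is a dimer of beta subunits alone. Activins signal through type II receptors, inhibins oppose them, follistatin binds activins and keeps them from their receptors, and the pituitary hormone FSH, whose release inhibin restrains, acts on the Sertoli cell through its own receptor.

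The counts of a library summed to between 23311689 and 28607746, and levels are given as CPM, the read count relative to the library total after edgeR's TMM scaling. *Ttk* had 27.9 and 32.6 CPM in control testes and 13.0 and 12.2 CPM in *Mps1* sKO testes. Of 14 Sertoli markers that hold none of the 9 genes, 13 were detected above the filter, and *Rhox5* had 1 count in the first control library and 0 in the others. Their summed level was 6380 and 6758 CPM in control and 8180 and 7590 CPM in *Mps1* sKO testes. In the same order, the sum of 6 general germ cell markers was 1047, 1257, 964 and 733 CPM, and that of 7 meiotic germ cell markers was 550, 735, 451 and 359 CPM. The sums for Leydig cells (672 to 785 CPM), peritubular myoid cells (853 to 981), macrophages (65.8 to 79.1), endothelial cells (119 to 133) and red blood cells (at most 85.3) differed less between the genotypes, and of these only the endothelial sum did not overlap. Of 5 adipocyte markers, *Fabp4*, *Adipoq*, *Car3* and *Cfd* were highest in control replicate 2 (129 counts of *Fabp4* against 12 to 28, and 23 of *Adipoq* against 1 to 7). *Plin1*, which makes up most of the adipocyte sum, was lowest there (344 counts against 505 to 644), and that sum was 20.4, 21.8, 23.2 and 24.9 CPM. In a whole testis, fewer cells of a type and less RNA per cell cannot be told apart.

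Per kilobase of gene length, the levels of the 9 genes spanned a wide range. *Inha* came first, at 353 to 495 CPM per kilobase over the 4 libraries, followed by *Amhr2* at 154 to 204 and *Amh* at 68.4 to 202, whose ranges overlapped. *Inhbb*, at 40.2 to 70.7, reached into the range of *Amh* by its highest library. *Fshr* was next, at 12.6 to 16.1. The ranges of *Acvr2a* (7.23 to 7.41), *Acvr2b* (4.99 to 7.74) and *Inhba* (4.81 to 7.88) lay on top of each other, and *Fst* was lowest, at 1.60 to 1.76 CPM per kilobase. Of the beta subunits, the B form was thus 8.36 to 9.67 times as abundant as the A form, and the alpha subunit was 5.79 to 7.85 times the sum of both.

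Promoter sequences of RefSeq on GRCm38.p6, from 250 bases before to 50 bases after the start, were at hand for 7 of the 9 genes. Both strands were searched for 4 motifs of regulators of these genes. The first was AAGGTCA, a site of steroidogenic factor 1, the product of *Nr5a1*, which 4.72% of 32851 promoters of that length hold. The SOX motif searched was AACAAT, which 10.7% of these promoters hold. The GATA motif was AGATAA, held by 11.2%. The core of the cAMP response element, GACGTC, is held by 4.4%. The 7 promoters held 1 match, an AAGGTCA that begins 231 bases before the start of *Amhr2*. It is shown in capitals, and *Amhr2* is shown for it. The promoters of *Acvr2a* and *Acvr2b* are shown because the ratio of these related receptors separated the genotypes. All 3 are printed 5′ to 3′ on the plus strand, ending just before the first annotated base of the gene, and they lie at chr15:102445117-102445366, chr2:48813859-48814108 and chr9:119401928-119402117.
Amhr2: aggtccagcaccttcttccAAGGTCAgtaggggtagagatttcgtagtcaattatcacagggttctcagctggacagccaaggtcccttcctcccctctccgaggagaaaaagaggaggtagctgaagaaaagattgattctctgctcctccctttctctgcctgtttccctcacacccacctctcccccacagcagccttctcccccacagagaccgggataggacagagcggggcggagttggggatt
Acvr2a: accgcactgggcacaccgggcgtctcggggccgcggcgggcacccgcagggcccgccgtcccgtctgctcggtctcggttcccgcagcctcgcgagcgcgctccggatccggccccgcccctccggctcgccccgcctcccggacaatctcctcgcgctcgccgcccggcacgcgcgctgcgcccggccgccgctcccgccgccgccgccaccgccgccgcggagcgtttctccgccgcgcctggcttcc
Acvr2b: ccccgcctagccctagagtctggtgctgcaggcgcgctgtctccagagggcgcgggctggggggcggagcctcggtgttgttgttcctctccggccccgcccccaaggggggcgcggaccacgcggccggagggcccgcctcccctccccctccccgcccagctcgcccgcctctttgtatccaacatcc
The printed stretches of the activin receptors are rich in G and C (82.0% and 74.7%) and hold 49 and 18 CpG dinucleotides, against 55.2% and 5 for *Amhr2*. A match of letters is a description and does not show that a factor binds.

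The first question was whether the expression of these genes in the testis differed when *Mps1* was lost from germ cells. In *Mps1* sKO testes, the mean was higher than in control testes for 8 of the 9 genes and lower for *Acvr2b*, although *Fst*, *Fshr* and *Acvr2a* turned lower when libraries were scaled to equal summed Sertoli markers, and *Fst* and *Acvr2a* but not *Fshr* (0.015) with the median ratio of these markers. None passed an adjusted p of 0.05 in edgeR's quasi-likelihood test over all tested loci (background 0.0292%). At an unadjusted p below 0.05 there were 4 of the 9, namely *Inha*, *Amhr2* and *Inhba* higher (3.92% of all tested loci) and *Acvr2b* lower (5.37%), where either direction takes 9.30% of all tested loci. DESeq2 and limma-voom also gave 0 at the adjusted threshold. At the unadjusted one DESeq2 gave 5 (3.2% of 35262 loci with any count, without the filter) and limma-voom 4 (9.35% of the 20561 filtered loci). These 2 shares are over unlike sets of loci. The same 4 genes exceeded a fold change of 1.2 in either direction (8.04% of tested loci, 3.09% higher and 4.95% lower). The study relaxed its cut-off to this value for upregulated genes, whereas *Acvr2b* was lower. The groups did not overlap for 6 genes (41.4% of tested loci), 5 of them higher (20.3%) and 1 lower (21.1%). The median log2 fold change of the 9 genes was 0.30, against 0.00027 over all tested loci.

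**Figure D1:**
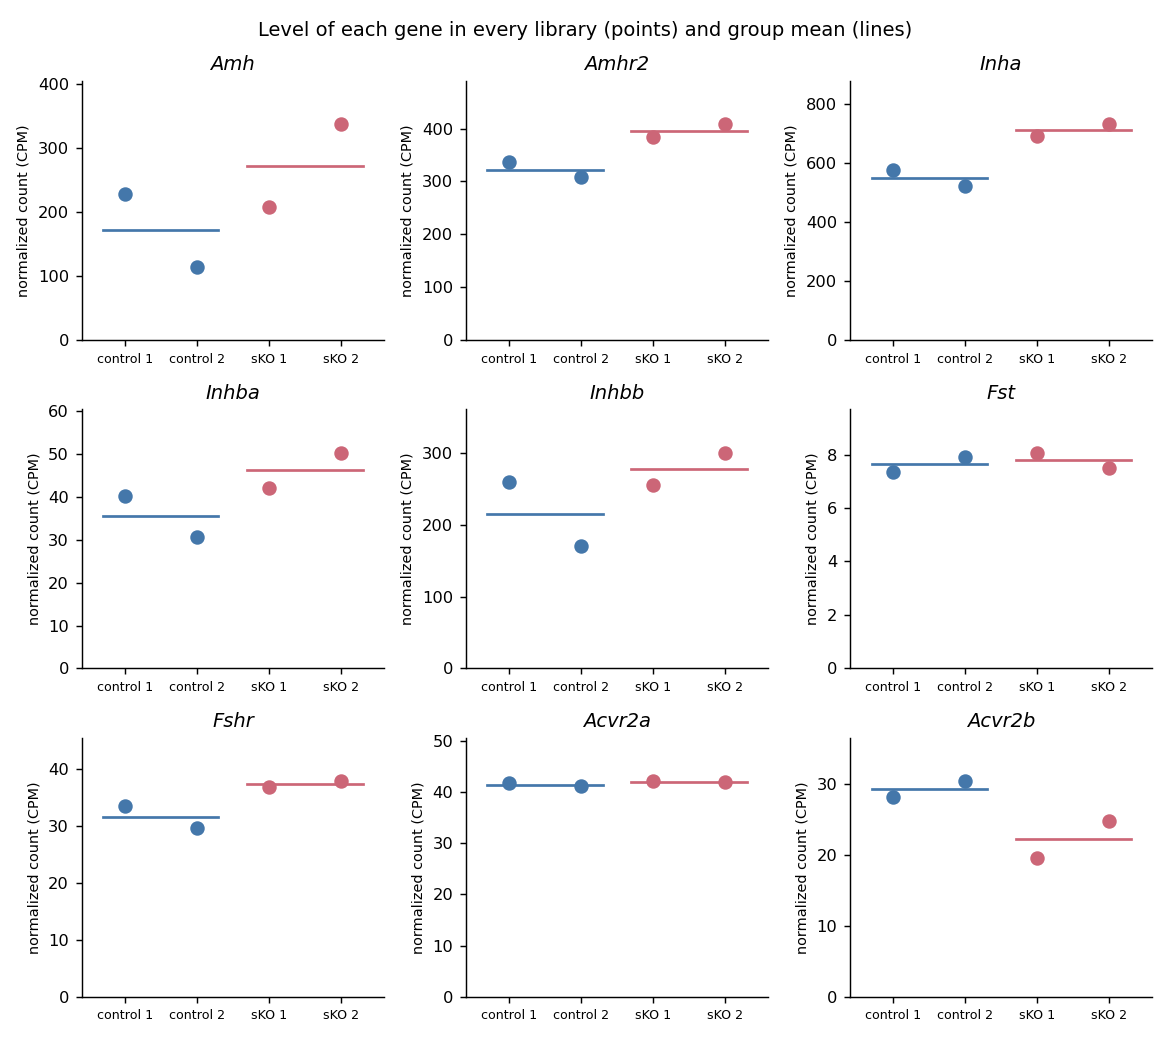
Normalized counts (CPM, linear axis from 0) of each of the 9 genes in the control libraries 1 and 2 (blue) and the Mps1 sKO libraries 1 and 2 (red), with a line at each group's mean. Inha lies between 521 and 575 CPM in control and at 692 and 731 in Mps1 sKO, whereas the groups overlap for Amh and Inhbb, and Acvr2b is the 1 gene with both Mps1 sKO libraries below both control libraries.

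*Inha* (ENSMUSG00000032968, chr1:75507077-75510366, plus strand, GRCm38) encodes the alpha subunit that makes a dimer an inhibin. Its level was 575 and 521 CPM in control testes and 692 and 731 CPM in *Mps1* sKO testes. The groups were apart, and the gap between them was wider than the difference within either. The means were 548 ± 37.8 and 711 ± 27.5 CPM (SD, n = 2 each). The log2 fold change was 0.38 (with a standard error, SE, of 0.092, unadjusted p = 0.0038, adjusted p = 0.494 by edgeR). Leaving out each library in turn gave 0.31 to 0.45.

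The beta subunits showed differences of the same size with wider spread. *Inhba* (ENSMUSG00000041324, chr13:16011851-16031621, plus strand) had 40.3 and 30.8 CPM in control and 42.2 and 50.4 CPM in *Mps1* sKO testes. Its higher control library and its lower *Mps1* sKO library were almost level. The log2 fold change was 0.38 (SE 0.15, adjusted p = 0.522 by edgeR), and 0.20 without control replicate 2. *Inhbb* (ENSMUSG00000037035, chr1:119415465-119422248, minus strand) had 259 and 171 CPM in control and 256 and 301 CPM in *Mps1* sKO testes, so that the groups overlapped. Its log2 fold change was 0.37 (SE 0.184, adjusted p = 0.579 by edgeR). Without control replicate 2 it was 0.10, and without control replicate 1 it was 0.70 with an adjusted p of 0.0205 from edgeR.

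While each beta subunit varied, their ratio per kilobase stayed close, at 9.67 and 8.36 (B over A) in control and 9.13 and 8.97 in *Mps1* sKO testes. The ratio of *Inha* to the sum of both beta subunits was 5.79 and 7.85 in control and 7.02 and 6.31 in *Mps1* sKO testes. Neither ratio separated the genotypes. With 2 libraries against 2, the smallest p of an exact permutation test is 0.333, so no p is given for single ratios.

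*Fst* (ENSMUSG00000021765, chr13:114452290-114458951, minus strand), which encodes follistatin, had 7.35 and 7.91 CPM in control and 8.07 and 7.50 CPM in *Mps1* sKO testes. The groups overlapped, and the log2 fold change was 0.028 (SE 0.154, adjusted p = 0.974 by edgeR). The 95% confidence interval of the fold change, from 0.795 to 1.31, contains the folds of the activin subunits. The beta subunits together exceeded *Fst* 42.0 and 26.1 times in control and 38.0 and 48.1 times in *Mps1* sKO testes, per kilobase. Of its 4589 exonic bases, 115 are shared with the antisense gene *Gm47040*, which had 2 to 12 counts.

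*Amh* (ENSMUSG00000035262, chr10:80805243-80807648, plus strand) had the largest log2 fold change of the 9 genes and also the largest standard error. Its level was 228 and 114 CPM in control testes and 207 and 337 CPM in *Mps1* sKO testes. The first control library lay above the first *Mps1* sKO library, so that the groups overlapped. The means were 171 ± 80.6 and 272 ± 91.7 CPM (SD, n = 2 each), with a log2 fold change of 0.67 (SE 0.322, adjusted p = 0.573 by edgeR). Single libraries decided its value. Leaving out a second library gave 0.25 (control replicate 2) or 0.28 (*Mps1* sKO replicate 2). Leaving out a first library gave 0.98 (*Mps1* sKO replicate 1) or 1.25 (control replicate 1), and in the last case the adjusted p was 0.000102 from edgeR. With a library left out, the lone library of its group is assumed to vary like those of the other group.

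*Amhr2* (ENSMUSG00000023047, chr15:102445367-102454633, plus strand), the type II receptor for AMH, had 336 and 308 CPM in control and 384 and 408 CPM in *Mps1* sKO testes. Here the groups were apart and the libraries of a genotype close together. Its log2 fold change was 0.30 (SE 0.091, unadjusted p = 0.012, adjusted p = 0.494 by edgeR), and it ranged from 0.24 to 0.36 when single libraries were left out. Per kilobase, *Amh* was 0.815 and 0.445 times *Amhr2* in control and 0.648 and 0.991 times in *Mps1* sKO testes, which overlapped.

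*Fshr* (ENSMUSG00000032937, chr17:88984952-89200675, minus strand), a receptor that among the cells of the testis marks the Sertoli cell, had 33.6 and 29.7 CPM in control and 36.9 and 38.0 CPM in *Mps1* sKO testes. The groups did not overlap, and the log2 fold change was 0.24 (SE 0.106, unadjusted p = 0.0537, adjusted p = 0.542 by edgeR).

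The activin type II receptors, which both bind activins, had different values. *Acvr2a* (ENSMUSG00000052155, chr2:48814109-48903269, plus strand) was nearly level over the 4 libraries, at 41.8 and 41.1 CPM in control and 42.1 and 41.9 CPM in *Mps1* sKO testes. The groups did not overlap, by a margin of under 1 CPM, and the log2 fold change was 0.019 (SE 0.091, adjusted p = 0.968 by edgeR) with a 95% confidence interval of the fold change from 0.875 to 1.17. *Acvr2a* shares 446 of 5686 exonic bases with *Orc4* on the other strand, which had 1343 to 1646 counts, and whether the reads were counted by strand is not given in the sources used here.

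*Acvr2b* (ENSMUSG00000061393, chr9:119402118-119434995, plus strand) had 28.2 and 30.4 CPM in control and 19.6 and 24.8 CPM in *Mps1* sKO testes, and it was the 1 gene of the 9 with both *Mps1* sKO libraries below both control libraries. The means were 29.3 ± 1.57 and 22.2 ± 3.69 CPM (SD, n = 2 each), with a log2 fold change of -0.40 (SE 0.137, unadjusted p = 0.0208, adjusted p = 0.505 by edgeR). Leaving out each library in turn gave -0.58 to -0.24, the smallest size without *Mps1* sKO replicate 1. Per kilobase, *Acvr2a* was 1.02 and 0.934 times *Acvr2b* in control and 1.49 and 1.17 times in *Mps1* sKO testes, so the ratio was higher in both *Mps1* sKO libraries. Beside this value, all 6 general germ cell markers and all 7 meiotic markers had lower means in *Mps1* sKO testes, with median log2 fold changes of -0.45 and -0.61, and the part of germ cells in the level of *Acvr2b* was not tested.

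The next question was how the 9 genes compared with other Sertoli genes. Of the 13 Sertoli markers tested, 11 had higher means in *Mps1* sKO testes (10293 of all 20561 tested loci did). Of these markers, 4 had an unadjusted p below 0.05 by edgeR (3.92% of all tested loci, higher), and the median log2 fold change was 0.26. *Clu* was the largest part of the summed Sertoli markers, at 2900 and 3586 CPM in control and 4399 and 3319 CPM in *Mps1* sKO testes. Values relative to that sum therefore rest largely on *Clu*. Per 1000 CPM of summed Sertoli markers, *Inha* had 90.1 and 77.1 CPM in control and 84.6 and 96.3 CPM in *Mps1* sKO testes. The groups of *Amhr2* (52.7 and 45.6 against 46.9 and 53.8), *Amh*, *Inhba*, *Inhbb* and *Fshr* overlapped on this scale as well. Those of *Fst* (1.15 and 1.17 against 0.987 and 0.988), *Acvr2a* (6.55 and 6.08 against 5.15 and 5.52) and *Acvr2b* (4.42 and 4.50 against 2.40 and 3.27) did not, and all 3 were lower in *Mps1* sKO testes. The share of all tested loci whose groups were apart on this scale was not computed. The log2 ratios of the means of *Fst* (-0.23) and *Acvr2a* (-0.24) lay near the shift of the median locus given next. With libraries scaled to equal summed Sertoli marker counts, which moved the median of all tested loci by -0.26, the log2 fold change of *Inha* was 0.11, that of *Amhr2* 0.035, and that of *Fshr* -0.023. Of the 9 genes, *Acvr2b* alone then had an unadjusted p below 0.05, where 28.3% of all tested loci did (log2 fold change -0.65, adjusted p = 0.0881 by edgeR). Which scale stands for the level in a Sertoli cell was not tested.

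**Figure D2:**
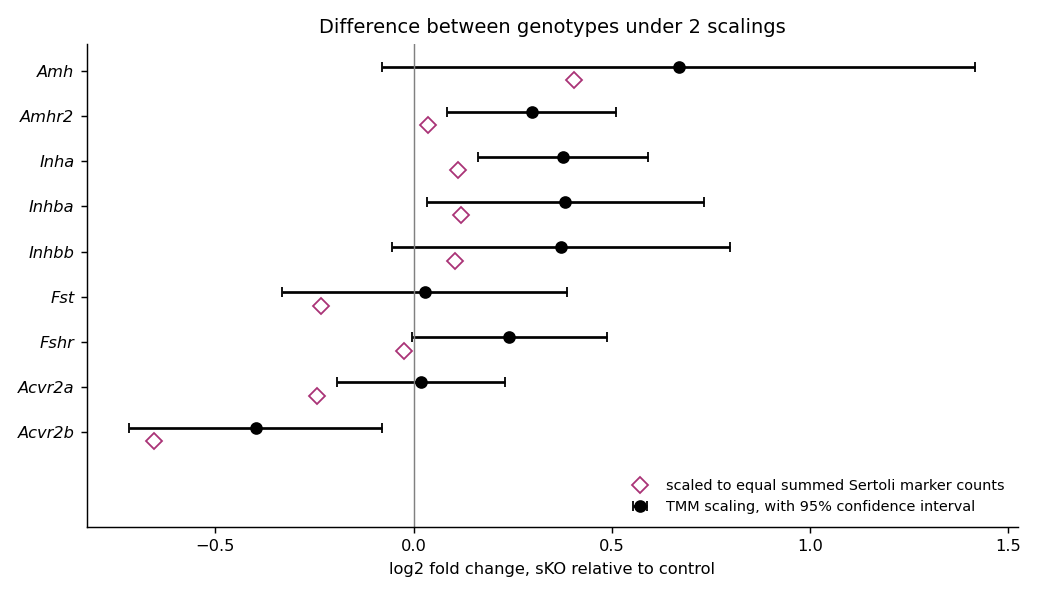
Log2 fold change of each gene in Mps1 sKO relative to control testes, with TMM scaling (black points, bars the 95% confidence interval by edgeR) and with libraries scaled to equal summed counts of the Sertoli markers (open diamonds). Every diamond lies to the left of its point, Amhr2 moves from 0.30 to 0.035, and Acvr2b stays below 0 on both scales, at -0.40 and -0.65.

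The difference between libraries of the same genotype was itself patterned. *Amh*, *Amhr2*, *Inha*, *Inhba*, *Inhbb* and *Fshr* each had their lowest level in control replicate 2 and their highest in *Mps1* sKO replicate 2. Both germ cell sums ran the other way, with their highest level in control replicate 2 and their lowest in *Mps1* sKO replicate 2. The part of germ cells in the levels of these 6 genes was not tested. For *Amh*, control replicate 2 lay below control replicate 1 by a log2 difference of -0.999, and *Mps1* sKO replicate 2 lay above *Mps1* sKO replicate 1 by 0.70, both larger than the fold change between the genotypes. For *Inhbb* these differences were -0.60 and 0.23, and for *Inhba* -0.39 and 0.26.

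Library differences also moved with the GC content of the transcripts. In the decile of genes richest in GC (57.8% to 78.3%), the median log2 difference was -0.14 between the control libraries and 0.15 between the *Mps1* sKO libraries, and in the poorest decile it was 0.039 and -0.065. *Amh*, at 65.4% GC, *Inhbb* (60.9%), *Inha* (59.7%) and *Amhr2* (58.8%) fall in that richest decile, whereas *Inhba* (41.4%) does not. The differences of *Inha* (-0.14 and 0.079) and *Amhr2* (-0.13 and 0.089) were about the size of that median between the control libraries and below it between the *Mps1* sKO libraries, and those of *Amh* and *Inhbb* were larger in both. The median fold change between the genotypes was 0.015 in the richest decile. With a correction for GC content in each library, the log2 fold change of *Amh* was 0.67 and that of *Inha* 0.37, and 7 of the 9 genes had an unadjusted p below 0.05 (10.7% of all tested loci), again with 0 at the adjusted threshold in edgeR. This correction was chosen after seeing the data.

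**Figure D3:**
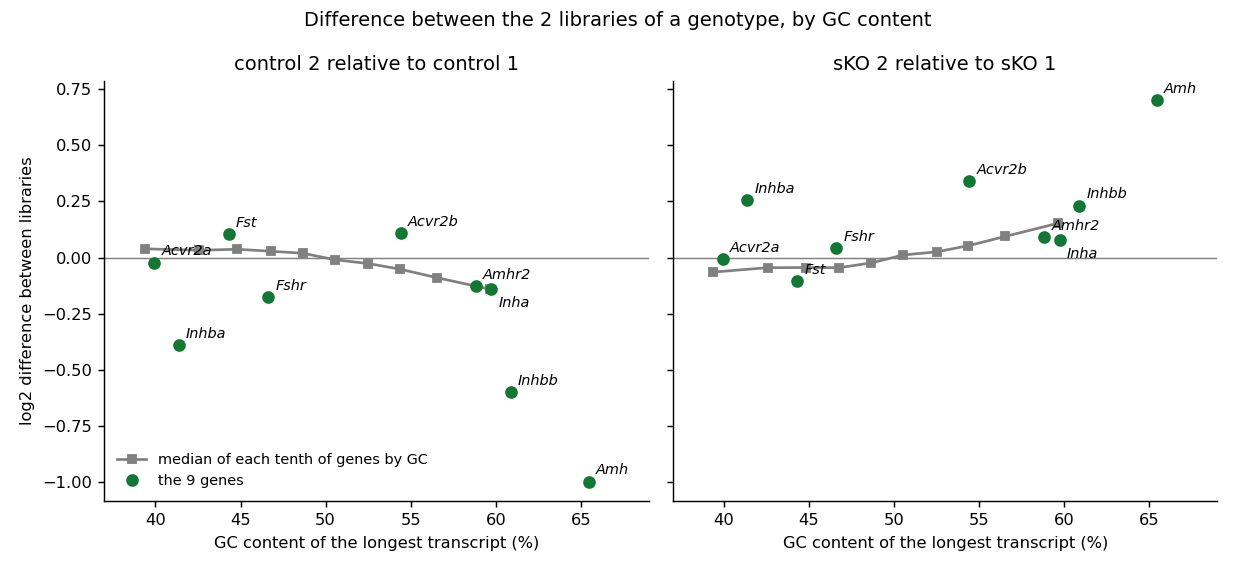
Log2 difference between the libraries of a genotype against the GC content of the longest transcript (%), for control replicate 2 relative to 1 (left) and Mps1 sKO replicate 2 relative to 1 (right), with the 9 genes in green and the median of each decile of genes by GC content in grey. The grey line ends at -0.14 on the left and 0.15 on the right, and Amh lies farthest from 0 in both panels, at -0.999 and 0.70.

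The final question was how other genes of these pathways behaved. The 10 lists hold 101 genes, of which 91 passed the filter. None passed the adjusted threshold in edgeR, 12 were higher and 1 lower at an unadjusted p below 0.05 (3.92% and 5.37% of all tested loci), and their median log2 fold change was 0.12. DESeq2 and limma-voom also gave 0 at the adjusted threshold, with 9 and 13 genes at the unadjusted one. In edgeR, 3 of 92 genes tested had an unadjusted p below 0.05 without control replicate 2 (3.77% of all tested loci) and 20 of 91 without control replicate 1 (9.99%), against 7 with the replicate block (5.05%) and 34 with the crossed block (18.4%), which was added after seeing the data.

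The next lists were other receptors, SMADs and SMAD targets, and an unadjusted p below 0.05 by edgeR takes 9.30% of all tested loci. Of 12 other receptors and co-receptors of the TGF-beta superfamily, 1 had an unadjusted p below 0.05, the co-receptor endoglin (*Eng*, log2 fold change 0.25, adjusted p = 0.536 by edgeR). Of 8 SMADs, which carry the signal to the nucleus, 0 did by edgeR, DESeq2 or limma-voom. *Smad2*, with the highest CPM of that list (not set per length), had 120 and 115 CPM in control and 124 and 114 CPM in *Mps1* sKO testes. Among 8 target genes of SMAD signalling it was 1, the cell cycle gene *Ccnd2* (215 and 182 against 254 and 235 CPM, adjusted p = 0.507 by edgeR).

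Outside the cell, *Bmp5* was the 1 of 12 other ligands tested with an unadjusted p below 0.05, at 0.67 and 0.87 CPM in control and 1.25 and 1.64 CPM in *Mps1* sKO testes (adjusted p = 0.505 by edgeR). DESeq2 called neither *Bmp5* nor *Eng* at that threshold. Of 5 proteases that cleave the precursors, *Pcsk6* had an unadjusted p below 0.05, with 37.9 and 31.2 against 45.0 and 46.0 CPM, a log2 fold change of 0.40 (adjusted p = 0.494 by edgeR).

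Below the FSH receptor, 15 genes were tested. The kinase A subunit *Prkar2b* (log2 fold change 0.34) and the arrestin *Arrb1* (0.26) were higher at an unadjusted p below 0.05, and the related arrestin *Arrb2* was lower (-0.33). *Arrb1* had 35.6 and 37.5 CPM in control and 44.2 and 43.6 CPM in *Mps1* sKO testes, and *Arrb2* had 59.9 and 54.2 against 42.9 and 48.1 CPM. The arrestins, which switch off receptors of this class, thus had opposite directions with TMM scaling. The median log2 fold change of this list, 0.11 with TMM scaling, became -0.16 and -0.12 under the summed and median Sertoli scalings. With the replicate block, 1 gene had an unadjusted p below 0.05 by edgeR (5.05% of all tested loci), against 3 (9.30%) without it.

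Of 12 other hormone receptors tested, 11 had higher means in *Mps1* sKO testes with TMM scaling, but the median log2 fold change of 0.22 became -0.041 with equal summed Sertoli markers and -0.0038 with their median ratio. *Esr2*, the estrogen receptor beta, had 4.90 and 3.68 CPM in control and 8.16 and 7.46 CPM in *Mps1* sKO testes, a log2 fold change of 0.87 (adjusted p = 0.494 by edgeR). The groups of *Esr2* were far apart. The prolactin receptor *Prlr* had 43.9 and 37.9 against 48.8 and 48.7 CPM (adjusted p = 0.529 by edgeR).

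Transcription factors known to act on *Amh* had higher means for 9 of 10 genes with TMM scaling, and here too the median of 0.22 became -0.041 and -0.0068 under the Sertoli scalings. *Sox9*, *Sox8*, *Wt1* and *Gata1* of this list are themselves Sertoli markers. These scalings therefore set the list partly against itself, and a median near 0 is partly built in. The 3 genes at an unadjusted p below 0.05 (9.30% of all tested loci by edgeR) became 1 with the replicate block (5.05%). They also became 1 with the summed (28.3%) or the median (25.9%) Sertoli scaling. Without control replicate 2, the median log2 fold change of the list was 0.11. *Gata4* had 211 and 178 CPM in control and 251 and 255 CPM in *Mps1* sKO testes (log2 fold change 0.38, adjusted p = 0.494 by edgeR). *Nr5a1*, which encodes steroidogenic factor 1, had 192 and 185 against 223 and 232 CPM (0.27, adjusted p = 0.497 by edgeR), and *Gata6* had 61.3 and 45.4 against 64.1 and 75.8 CPM (0.39, adjusted p = 0.524 by edgeR). All 3 are also expressed by Leydig cells. The Leydig marker sum overlapped between the genotypes, while 5 of 7 markers had higher and 2 lower means in *Mps1* sKO testes.

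The gonadotropin subunits, which the pituitary makes, were at or near the limit of detection. *Fshb* had 0 counts in every library, which allows up to 3 counts or 0.105 to 0.129 CPM. *Lhb* was the 1 subunit above the filter, with 0.67 and 0.69 CPM in control and 0.52 and 0.34 CPM in *Mps1* sKO testes (log2 fold change -0.68, adjusted p = 0.627 by edgeR), so that its groups did not overlap and its level was lower in *Mps1* sKO testes.

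**Figure D4:**
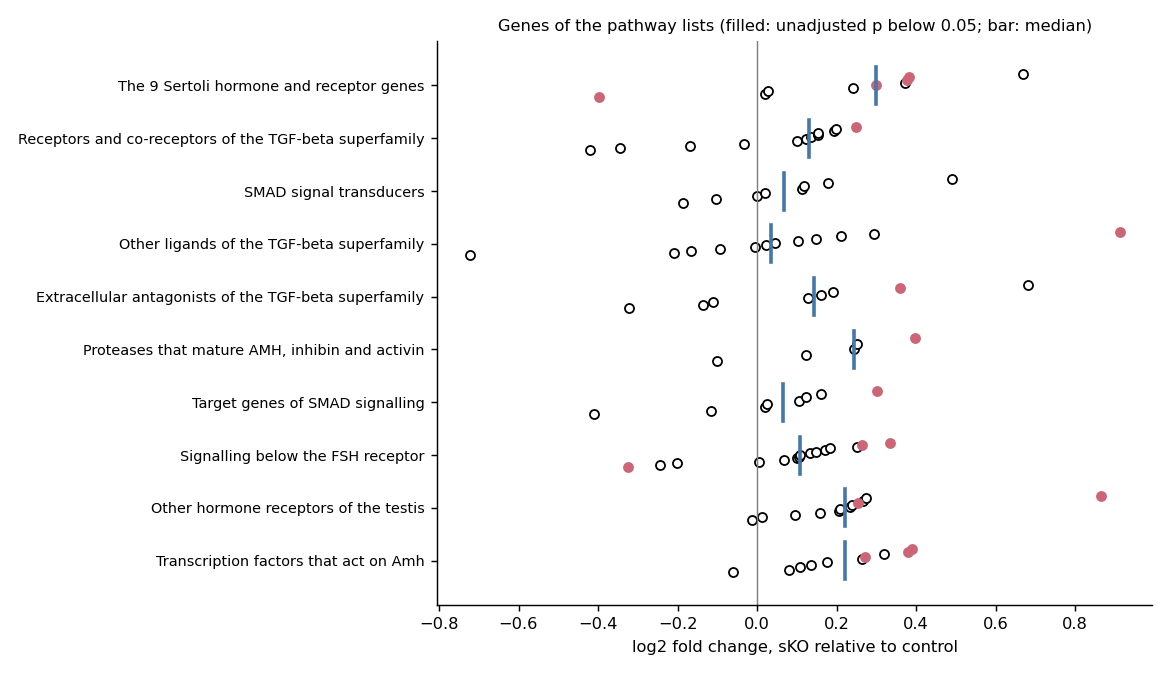
Log2 fold change in Mps1 sKO relative to control testes of each tested gene of the 9 hormone and receptor genes and of 9 pathway lists, 1 row per list, with genes at an unadjusted p below 0.05 from edgeR filled and the median of a list as a blue bar. The median is 0.30 for the 9 genes, 0.22 for the other hormone receptors and for the transcription factors that act on Amh, and 0.067 for the SMADs.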

How the data were processed

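RNA of whole testes at P10 was measured in 4 libraries, 2 control and 2 *Mps1* sKO, grouped by their labels. The authors deposited read counts per gene and FPKM values in 1 table. The deposited FPKM equalled the count scaled by gene length and library total (largest relative deviation 1.13e-08) and was used only for this check. Per the submitters' processing notes, reads were aligned with HISAT2 2.0.5 to mm10 and the tools included featureCounts and DESeq2 1.16.1. Strandedness is not given in the sources used here, so reads of overlapping antisense genes may be mixed.

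Counts were filtered with filterByExpr, scaled by TMM and tested by genotype with edgeR 4.0.16 (quasi-likelihood, two-sided, Benjamini-Hochberg over 20561 loci, R 4.3.3). DESeq2 1.42.0, limma-voom (limma 3.58.1), other scalings and filters, and leaving out each library were alternatives. Totals were 23311689 to 28607746 counts, so 3 counts equal 0.105 to 0.129 CPM. Counts of replicates differed by more than sampling noise (chi-square per degree of freedom 8.49 and 11.6). Gene positions are those of the file on GRCm38. The tests were checked on simulated data. The 9 genes and all lists were chosen with earlier results of these data known. Named were all 9 genes and *Ttk*. From each pathway list, up to 3 genes with the smallest unadjusted p below 0.05 were named, or else the one with the highest CPM. Genes of marker lists were named only at or near 0, except those of the adipocyte list, *Clu* and *Wt1*, chosen after their values were seen. The values of 1 gene that this rule names are not reported here.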

Additional observations from a re-analysis of the deposited data

How the results depend on the processing

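Single libraries, above all the second control library, moved the counts. Leaving out each library in turn gave 0 to 2 of the 9 genes at an adjusted p below 0.05, 0 to 6 at an unadjusted p below 0.05 (3.77% to 12.8% of all loci), 0 to 6 that also passed a fold of 1.2, 7 to 8 whose groups did not overlap (more frequent by construction with 1 library against 2), and a median log2 fold change of 0.15 to 0.36. Without control replicate 2 the counts at the unadjusted threshold and past the fold were 0 and the median was 0.15, and the 2 adjusted calls, *Amh* and *Inhbb*, came without control replicate 1, where 199 of all loci passed. Without *Mps1* sKO replicate 2, 2 genes passed the fold of 1.2. With no filter on low counts, 3 genes passed the adjusted threshold in edgeR (*Amh* 5.99e-08, *Inha* 0.0131 and *Inhbb* 0.0274), against 0 with the filter, while the calls over all loci went from 6 to 390, and the cause was not tested. With equal summed Sertoli marker counts, the median was 0.035, 1 gene passed the unadjusted threshold (28.3% of loci) and the fold of 1.2, and 3 genes had groups that did not overlap. With the median Sertoli marker ratio, an alternative chosen after seeing the data, the median was 0.071 and 1 gene passed both (25.9% of loci unadjusted). On that scale, 5 genes had groups that did not overlap. The share of all loci with groups apart was not computed for either Sertoli scaling. Whether the replicate numbers pair the libraries is not given in the sources used here. Deviations of same-numbered libraries correlated at -0.306 over 15063 loci. The trend with GC content also ran in opposite directions in the 2 genotypes, so this correlation cannot decide on pairing. With the replicate block, 2 genes (*Inha* and *Acvr2b*) passed the unadjusted threshold (5.05% of loci) and the fold of 1.2. The crossed replicate block, also added after seeing the data, gave 5 genes at the adjusted and 7 at the unadjusted threshold (550 of all loci adjusted, 18.4% unadjusted), and the GC correction gave 7 at the unadjusted one (10.7%). The direction of *Fst* reversed to -0.23 and -0.20 under the summed and median Sertoli scalings and to -0.025 and -0.024 when replicate 1 of control or of *Mps1* sKO was left out, within a leave-one-out range of -0.025 to 0.081. That of *Fshr* reversed to -0.023 under the summed scaling, and that of *Acvr2a* to -0.0023 with library size only and to -0.24 and -0.21 under the Sertoli scalings. *Acvr2b* stayed lower in all 17 alternatives, from -0.65 to -0.24. With 2 libraries in a group, the precision is set by the spread between libraries rather than by depth for the genes with high counts.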
